A study of Canis lupus familiaris with 51 samples.

Results

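Adipocyte genes were followed across 51 canine cutaneous mast cell tumors (MCTs), tumors of dog skin that grow in the dermis and the fat beneath it. The 9 genes chosen were ADIPOQ, LEP, LPL, CD36, FABP4, PLIN1, CIDEC, LIPE and PPARG, and their probes were found by gene name or by the gene's symbol in the probe description. They were 9 of 11455 genes with a symbol on the array, and 17 of 43603 probes. PLIN1 was also searched under its older name PLIN, and both FABP4 probes are listed in the files under a gene number that the RefSeq gene table pairs with that symbol.

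Each tumor was hybridized to its own one-color Agilent canine array. The RNA came from an aliquot of the middle of the mass, taken at surgery and kept in RNAlater. The dogs were 3 to 14 years old, and 30 were labeled female and 19 male, with 2 without a sex label. By breed label there were 9 Boxers, 9 Labrador Retrievers, 14 Crossbred dogs, 17 dogs of other breeds and 2 without a group. What all groups shared was the diagnosis, the sampling and the array, and no normal skin or fat was analysed here. Each tumor is 1 sample of unsorted tissue, so fewer fat cells and less RNA per fat cell cannot be told apart. The histological classes of the tumors were not analysed here, because the sample labels do not give them.

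Adipocytes store fatty acids as triglyceride in a single large lipid droplet. Lipoprotein lipase (LPL) frees fatty acids from circulating lipoproteins, CD36 takes them up and FABP4 carries them inside the cell. Perilipin 1 (PLIN1) and CIDEC coat and enlarge the droplet, hormone-sensitive lipase (LIPE) breaks its fat down, PPARG switches the fat cell program on, and adiponectin (ADIPOQ) and leptin (LEP) are the hormones the cell secretes. ADIPOQ and LEP are the members most tied to fat tissue, whereas FABP4, CD36, LPL and PPARG are also known in endothelial cells, macrophages or sebaceous glands.

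Probe sequences are shown for the genes on which the results turn. The ADIPOQ pair shares no stretch of sequence and reads different parts of the transcript, so that 2 separate readings of the adipocyte hormone are available. The first is at chr34:22416624-22416683 and the second at chr34:22416531-22416590, both on the plus strand. The genome build of the coordinates is not given in the sources used here, and neither is the position of a probe within an exon.
ADIPOQ, first probe: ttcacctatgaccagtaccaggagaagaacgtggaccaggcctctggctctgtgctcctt
ADIPOQ, second probe: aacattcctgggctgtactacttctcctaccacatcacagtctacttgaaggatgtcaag
The CIDEC probes, at chr20:11399929-11399988 and chr20:11399922-11399981 on the plus strand, overlap almost fully. Capitals mark the 53 bases they have in common, so their agreement is a repeat reading of 1 site.
CIDEC, first probe: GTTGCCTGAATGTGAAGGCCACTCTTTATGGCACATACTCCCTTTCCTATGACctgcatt
CIDEC, second probe: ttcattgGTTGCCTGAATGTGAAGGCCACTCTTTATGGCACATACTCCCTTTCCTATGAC
The FABP4 probe spans chr29:31654192-31654708 on the minus strand, 517 bases for a probe of 60, so it crosses at least 1 gap in the genome. The LEP probe lies at chr14:11075961-11076020 on the minus strand and is shown because it did not vary with the other LEP probe.
FABP4, first probe: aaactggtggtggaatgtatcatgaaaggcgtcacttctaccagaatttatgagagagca
LEP, first probe: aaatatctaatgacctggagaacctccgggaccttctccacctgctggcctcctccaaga

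All levels below are log2 of the processed signal after quantile normalization, so a step of 1 is a doubling of brightness. A probe was counted as well above background on an array where the scanner software marked it so, and where a gene had several probes the lead probe was the one well above background on the most arrays. Levels of different probes are not compared with each other, since probes differ in how strongly they bind. The arrays came from 15 slides scanned in 9 sessions, between 59.4% and 74.8% of their spots were well above background, and no array had more than 3 saturated spots. The file of T80 had been saved from a spreadsheet, which left its signals with at most 3 digits. Tumors are named by the case number in the labels.

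ADIPOQ was high in a few tumors and near its lowest level in most. The lead probe was well above background on all 51 arrays, with a lowest level of 5.81, a median of 6.62 and a highest level of 11.69. The 5 highest tumors were T117 at 11.69, T84 at 11.18, T106 at 10.30, T102 at 9.80 and T62 at 9.66, followed by T30 at 8.68 and T122 at 8.54. T117 was thus 33.5-fold above the median, 6 tumors were at least 4-fold above it, and 39 tumors lay within 2-fold of it. The 5 highest tumors came from 5 slides and from 4 female dogs and 1 male dog, 2 of them Crossbred, 2 Labrador Retrievers and 1 a Boxer. The second ADIPOQ probe put T117 at 11.23, T84 at 10.65 and T106 at 9.74, again the highest 3, and the probes had Pearson's r of 0.97 over the 44 tumors with both values. The folds depend on the probe. The second was well above background on 41 arrays, and on it T117 was 78.7-fold above the median. By that probe 8 tumors were at least 4-fold above the median and 26 of the 44 lay within 2-fold of it.

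LEP gave 2 readings that did not go together. The lead probe was well above background on all 51 arrays but ranged only from 6.80 to 8.20 around a median of 7.5, and 6 arrays had it flagged. Its standard deviation across tumors, 0.32, was larger than that of only 19.2% of the 32295 probes well above background on at least 10 arrays. The other LEP probe, at chr14:11073477-11073536, was well above background on 18 arrays and ranged from 1.92 through a median of 3.24 to 7.38. Its highest tumors were T117 at 7.38, T57 at 6.93 and T81 at 6.78. The probes had r of -0.11 over 45 tumors, and on the lead probe T117 stood at 7.17, below the median. The leptin level of a tumor therefore depends on the probe, and both are given below.

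**Figure D1:**
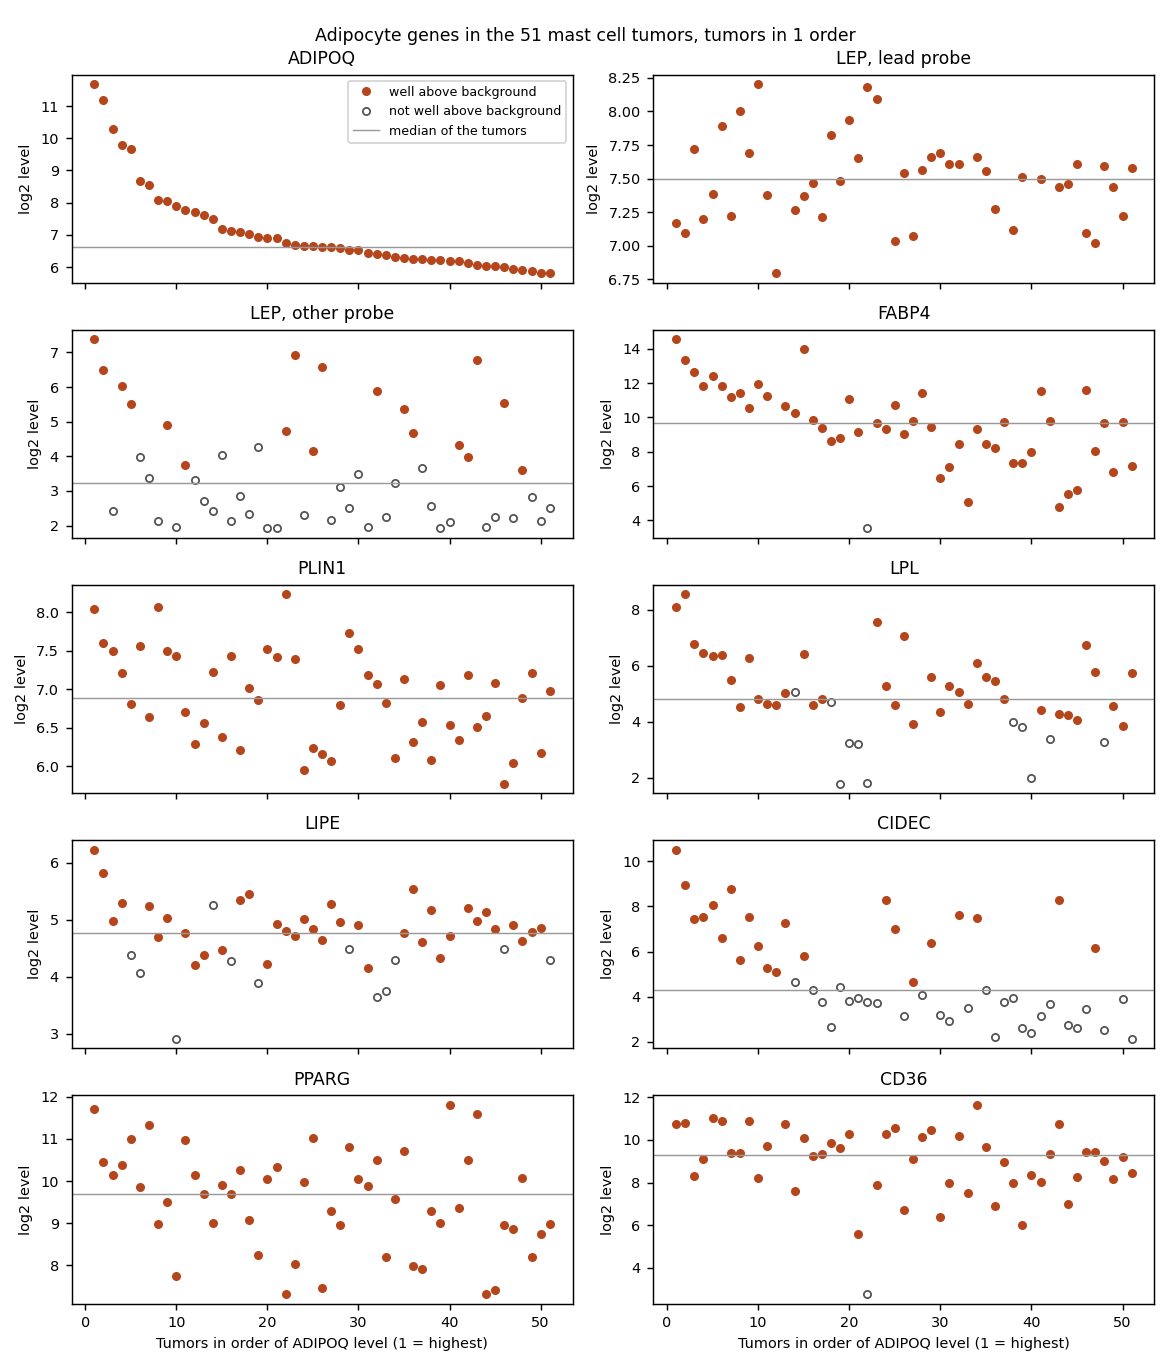
Log2 level of each gene in the 51 tumors, 1 point per tumor and 1 panel per probe, with the tumors in the same order in every panel, from the highest ADIPOQ level at 1 to the lowest at 51. Filled points are well above background, open points are not, and the grey line is the median. The left end is high in the ADIPOQ, FABP4, LPL and CIDEC panels, whereas the LEP lead probe and PLIN1 stay within a narrow range.

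Among the genes of fatty acid uptake and transport, FABP4 had the widest range of all lead probes. It went from 3.53 in T49, where it was not well above background, through a median of 9.69 to 14.56 in T117, and T104 at 14.00 and T84 at 13.35 followed. In 8 tumors it was at least 4-fold above the median and in 11 at least 4-fold below it. The other FABP4 probe followed it closely, with r of 0.998 over 50 tumors.

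LPL was near the detection limit in part of the tumors. Its lead probe, at chr25:40069498-40069557, was well above background on 40 arrays and had a lowest level of 1.79, a median of 4.81 and a highest of 8.54, in T84. T117 stood at 8.10 and T57 at 7.54. The other LPL probes, well above background on 37 and 33 arrays, had r of 0.87 and 0.91 with it. CD36, read by a single probe at chr18:23359985-23360044, went from 2.77 in T49 through a median of 9.28 to 11.64 in T77, and T62 at 11.05 and T47 at 10.89 were next. CD36 was well above background on 50 arrays, and 7 tumors were at least 4-fold below its median against 1 at least 4-fold above.

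Of the droplet genes, CIDEC varied most. Its lead probe was well above background on 23 of the 51 arrays, with a lowest level of 2.12, a median of 4.30 and a highest of 10.52 in T117. T84 at 8.94, T122 at 8.77, T81 at 8.31 and T88 at 8.28 came next, and 15 tumors were at least 4-fold above the median. The tumors at the median were not well above background, so folds over that level are lower bounds. PLIN1 and LIPE hardly varied by comparison. The PLIN1 lead probe, at chr3:55519495-55519554, ranged from 5.78 in LM0 through 6.89 to 8.23 in T49, with 47 tumors within 2-fold of the median, and the other PLIN1 probe was at background level on all 51 arrays. LIPE, at chr1:114897815-114897874, was well above background on 39 arrays and ranged from 2.91 in T9 through 4.77 to 6.23 in T117, where T84 at 5.82 was second.

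PPARG, the nuclear receptor at the head of the fat cell program, was well above background on all 51 arrays. Its lead probe, at chr20:9138996-9139055, ranged from 7.32 in T49 through 9.69 to 11.81 in T121, with T117 at 11.71 and T81 at 11.60. The other PPARG probe followed it with r of 0.91, but its highest tumors were T122 at 8.31, T81 at 7.91 and T62 at 7.88. T121, highest in PPARG on the lead probe only, had an ADIPOQ level of 6.19, an LPL level of 2.0 and a CIDEC level of 2.37. All of these were below the medians of those genes.

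Set against all probes well above background on at least 10 arrays, the standard deviation of FABP4 exceeded that of 98.6% of them, CIDEC 98.1%, CD36 96.1%, LPL 94.1%, ADIPOQ 93.1% and PPARG 90.2%. PLIN1 and LIPE, at 62.8% and 59.6%, varied about as much as a typical probe.

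The tumors high in ADIPOQ were high in several of the other genes, but the genes did not name the same tumors throughout. Of the 10 tumors highest in ADIPOQ, 7 were among the 10 highest in FABP4, 6 in each of PLIN1, LPL and CIDEC, 5 in CD36 and in the LEP lead probe, 4 in LIPE and 3 in PPARG. Those shared with the LEP lead probe were T106 and, from slides 11 and 12, T9, T30, T48 and T47. Those shared with PLIN1 were T117, T84, T106 and, from slide 12, T30, T48 and T47. The overlap was not counted within slides. T117 ranked first of the tumors in ADIPOQ, FABP4, LIPE, CIDEC and the other LEP probe, and second in LPL and PPARG. T84 ranked second in ADIPOQ, LIPE and CIDEC, first in LPL and number 3 in FABP4.

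Other tumors had 1 of these genes high without ADIPOQ. T81 had CIDEC at 8.31, PPARG at 11.60 and CD36 at 10.72, all within the highest 10, while its ADIPOQ level was 6.08 and its FABP4 level 4.80, both under the median. T88, T50 and T77 had CIDEC at 8.28, 7.63 and 7.49 with ADIPOQ at 6.66, 6.42 and 6.31. T104 had the second highest FABP4 level, 14.00, with ADIPOQ at 7.18. T57, T114 and LM0 had LPL at 7.54, 7.06 and 6.74 and the other LEP probe at 6.93, 6.57 and 5.54, whereas their ADIPOQ levels of 6.68, 6.62 and 6.02 were at or near the middle of the range or below it. T49 stood apart at the other end, lowest in FABP4, CD36 and PPARG and highest in PLIN1.

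Correlations among the lead probes were computed for all 36 pairs of genes. Pearson's r is given with Spearman's rho and permutation p-values from 100000 resamples, two-sided and adjusted over the 36 pairs, and a pair passed at an adjusted p under 0.05. By Pearson's r, 16 pairs passed, 15 of them positive. ADIPOQ went with CIDEC (r = 0.69, rho = 0.63, 50 tumors) and with FABP4 (r = 0.67, rho = 0.65, 50 tumors), each with an adjusted permutation p of 0.00012, from the smallest p that the resamples can give, 1e-05. Without the 2 tumors farthest from the ADIPOQ median, T117 and T84, both relations had r of 0.59. The relation of ADIPOQ with LPL had r of 0.56, fell to 0.37 without those 2 tumors and had rho of 0.40 (adjusted permutation p = 0.00036 for r and 0.0145 for rho).

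CIDEC was the gene with most of the closer relations. It went with CD36 (r = 0.60, rho = 0.68), PPARG (r = 0.52), FABP4 (r = 0.51) and LPL (r = 0.51), and the largest adjusted permutation p of these r values was 0.000556. FABP4 went with CD36 (r = 0.55) and LPL (r = 0.54), and PPARG with CD36 (r = 0.52). The weaker pairs that passed were ADIPOQ with PLIN1 (r = 0.44), LPL with CD36 (r = 0.40), ADIPOQ with PPARG (r = 0.38) and FABP4 with PPARG (r = 0.38). ADIPOQ and CD36 missed the threshold on r (0.30, adjusted permutation p = 0.0661) and passed on rho (0.34, adjusted permutation p = 0.0382). ADIPOQ and LIPE missed it on both (r = 0.30, adjusted permutation p = 0.0682), and r was -0.01 without T117 and T84.

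Levels were then taken as deviations from the mean of each slide, because most slides held several of the arrays. Again 16 pairs passed on r, but not all were the same pairs, and 14 passed on rho against 17 over all tumors. PLIN1 with LIPE (r = 0.34, adjusted permutation p = 0.0386) passed within slides and not over all tumors. So did the LEP lead probe with PPARG (r = -0.35, adjusted permutation p = 0.0488). ADIPOQ had r of 0.67 with CIDEC, 0.64 with FABP4 and 0.55 with LPL within slides. Its r with PLIN1 rose to 0.68, but rho with PLIN1 was 0.44 within slides and 0.42 over all tumors. The LEP lead probe and PLIN1 had r of 0.62 over all tumors (adjusted permutation p = 0.00027) but 0.17 within slides (adjusted permutation p = 0.354), so this relation did not hold within slides. The negative relation of the LEP lead probe with LIPE (r = -0.43, adjusted permutation p = 0.0109) was -0.25 within slides and missed the threshold there (adjusted permutation p = 0.184).

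With the other LEP probe in place of the lead probe, a choice made after the values were seen, leptin went with LPL (r = 0.51), CIDEC (r = 0.39) and ADIPOQ (r = 0.36). The adjusted permutation p for ADIPOQ was 0.0198 on r, while rho was only 0.19. For the lead probe, r with ADIPOQ was -0.09.

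**Figure D2:**
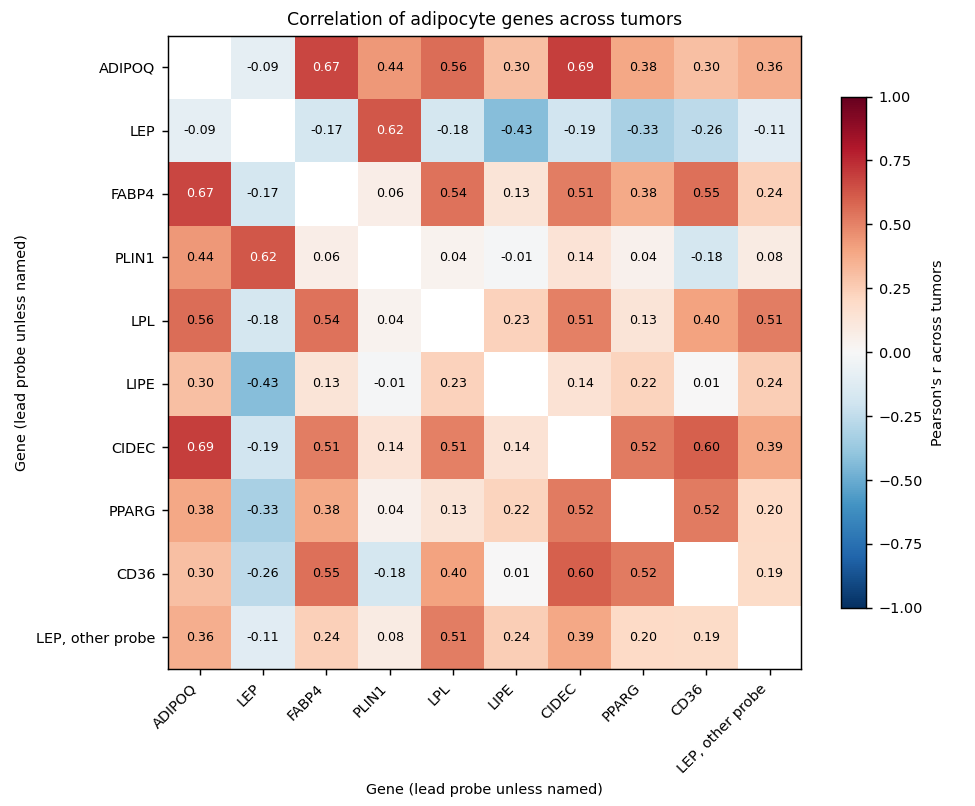
Pearson's r across tumors for each pair of the 9 genes, lead probes plus the other LEP probe in the last row, with the color running from -1 to 1. ADIPOQ, FABP4, LPL, CIDEC, PPARG and CD36 form the block of positive values, with 0.69 for ADIPOQ with CIDEC as the highest, while the LEP lead probe is below 0 with every gene other than PLIN1.

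**Figure D3:**
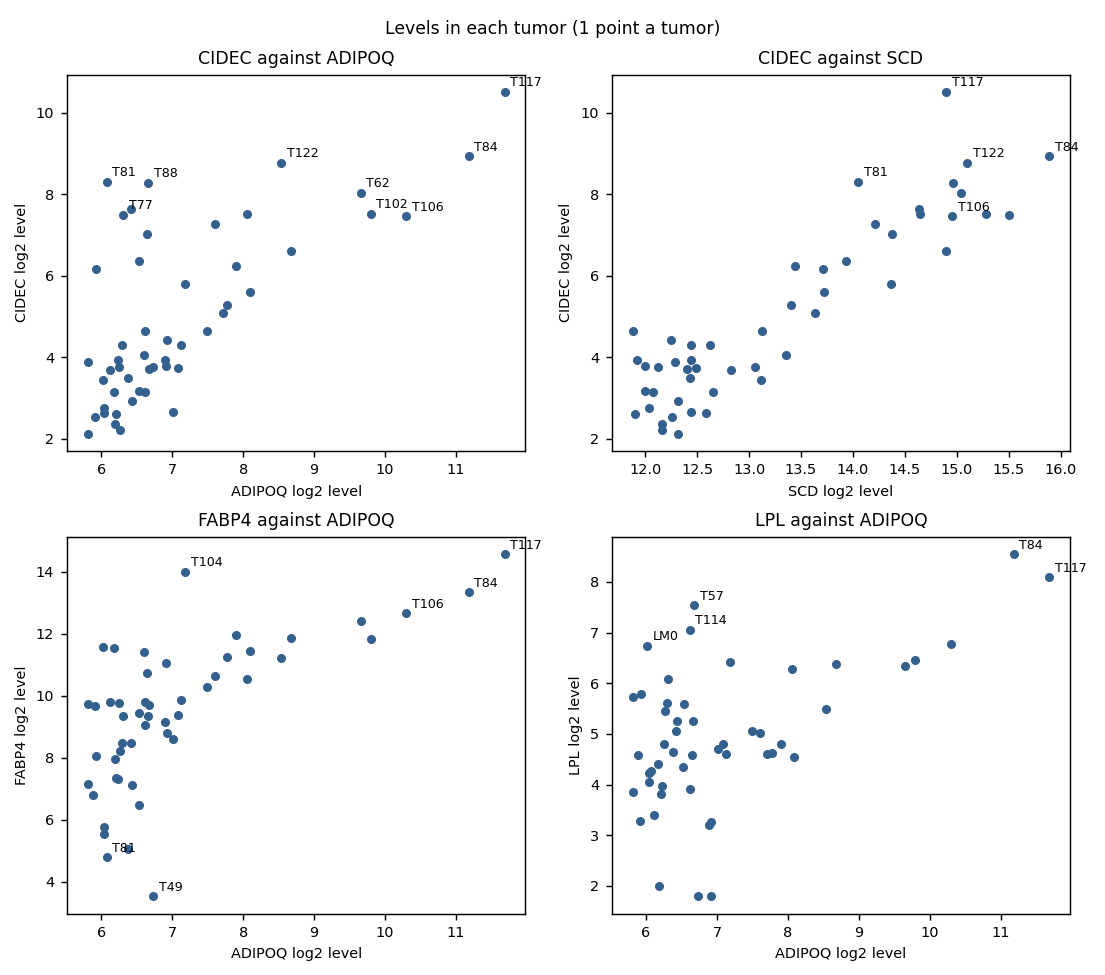
Log2 levels in each tumor, 1 point per tumor, for CIDEC against ADIPOQ, CIDEC against SCD, FABP4 against ADIPOQ and LPL against ADIPOQ. T117 and T84 are at the upper right of the ADIPOQ panels, and T81, T88 and T77 (CIDEC), T104 (FABP4) and T57, T114 and LM0 (LPL) are high at low ADIPOQ levels.

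For each gene the gene symbols with the highest r were sought over genes well above background on at least 10 arrays. For ADIPOQ these were FGG (0.74), the gamma chain of fibrinogen, then CIDEC (0.69), the glycerol-3-phosphate dehydrogenase GPD1 (0.68), the stearoyl-CoA desaturase SCD (0.67) and FABP4 (0.67). FGG kept r of 0.67 without T117 and T84, and its highest level, 9.68, was in T84. For CIDEC they were SCD (0.91), GPD1 (0.89), the droplet protein CIDEA (0.88), the phosphatase inhibitor PPP1R1B (0.81) and the acyl-CoA synthetase ACSM3 (0.74). T117 and T84 were not needed for these, since r without the 2 tumors farthest from the CIDEC median was 0.91 for SCD, 0.85 for GPD1 and 0.88 for CIDEA. The likeness of CIDEC to SCD, GPD1 and CIDEA was thus closer than that of CIDEC to any of the other 8 genes. That difference in r was not tested.

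FABP4 was followed by ADIPOQ (0.67), FGG (0.66), the adenylyl cyclase ADCY2 (0.60), DACH1 (0.59) and RCAN2 (0.59), and LPL by the triglyceride synthesis enzyme DGAT2 (0.69), the lipogenic transcription factor MLXIPL (0.66), ARHGEF15 (0.65), TMEM88 (0.64) and IVD (0.63). The last of these had a value for only 19 tumors, all others named here for LPL for at least 47, and it dropped to 0.34 without the 2 tumors farthest from the LPL median. For CD36 the closest were RHPN2 (0.77), CMTM8 (0.77), NFIB (0.73), CIDEA (0.72) and KAZALD1 (0.72), and for PPARG the aldehyde dehydrogenase ALDH2 (0.74), PPP1R9A (0.70), the growth hormone receptor GHR (0.70), DEPTOR (0.68) and CYBRD1 (0.68). LIPE was closest to SEPTIN1 (0.70), VPS26B (0.70), PDE8B (0.67 over only 11 tumors, and 0.17 without 2 of them), HK3 (0.64) and GGA3 (0.64). The LEP lead probe was closest to B3GAT2, PLEKHS1 and RFLNB (0.89 each), THEMIS (0.88) and TMEM104 (0.87), and among those closest to PLIN1 were RFLNB (0.81), UBN1 (0.80) and LOC608975 (0.77). None of the genes named here for LEP or PLIN1 is among the 9.

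A wider list of 80 genes of the fat cell was also followed, covering triglyceride synthesis and breakdown, droplet proteins, adipokines, transcription factors and insulin action. Of these, 60 were on the array and 55 were well above background on at least 10 arrays. With ADIPOQ, 11 of the 55 (20%) had r over 0.3, against 2.94% of the 10255 genes outside the 9, and the median r was 0.05 against -0.03. With CIDEC, 24 of the 55 (43.6%) had r over 0.3, against 11% of all those genes. For CD36 the shares were 49.1% against 13.5%, for PPARG 40% against 11.1%, for LPL 30.9% against 6.37% and for FABP4 23.6% against 4.95%. For LEP the shares were 7.27% against 9.82%, for PLIN1 9.09% against 8.1% and for LIPE 3.64% against 8.08%. None of these differences in share was tested.

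The 10 genes of the list with the highest r with ADIPOQ were GPD1 (0.68), SCD (0.67), the glyceroneogenesis enzyme PCK1 (0.66), CIDEA (0.49), MLXIPL (0.46), the acyltransferase GPAM (0.39), GHR (0.38), DGAT2 (0.35), the triglyceride lipase PNPLA2 (0.35) and the transcription factor ZNF423 (0.33). PCK1 was well above background on 28 arrays and reached 11.99 in T117 against a median of 4.16. CIDEA ran from 5.64 to 15.18, a level it had in T81, where ADIPOQ was 6.08. In T117 and T84 CIDEA was at 13.70 and 13.72. Among the lowest in the list were BSCL2 (-0.17), a gene of lipid droplet formation, and CDH13 (-0.16), a receptor of adiponectin.

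The members were then set against the mean standardized level of lists of other cell types, with 81 relations in all, because several of the genes are known outside fat. The keratinocyte list split the tumors into 25 at or below -0.09 and 26 at or above 0.45, so no r over all tumors is given for it. Within these clusters, which hold fewer tumors, none of 18 relations passed (lowest adjusted permutation p = 0.497 on r). Of all 81 relations, those with the keratinocyte list included, 15 passed on r and 14 of these on rho as well. Of the 72 relations without that list, 13 passed on r and 12 of these on rho as well. Some relations with the keratinocyte list thus passed over all tumors. The adipocyte pathway list, which leaves out the 9 genes, went with CIDEC (r = 0.73), CD36 (r = 0.61), PPARG (r = 0.55) and LPL (r = 0.47). With ADIPOQ it had r of 0.36, which passed on r (adjusted permutation p = 0.0485) and not on rho (0.34, adjusted permutation p = 0.0696). The relation missed the threshold on r with normexp (0.35, adjusted permutation p = 0.0695) and the authors' table (0.35, adjusted permutation p = 0.07). The list mean was highest in T81, T77 and T88, which ranked 43, 34 and 24 in ADIPOQ. The tumors highest in ADIPOQ, T117, T84, T106, T102 and T62, ranked 11, 5, 30, 6 and 8 on the list. CIDEA is 1 of the genes of the list and was kept in these relations.

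LPL went with the endothelial list (r = 0.53, rho = 0.46, adjusted permutation p = 0.00278 on r), with r of 0.43 without 2 tumors and 0.51 within slides. Lipoprotein lipase is made by fat and muscle cells and held at the capillary wall. Only 6 of 16 genes of the sebaceous gland list were on the array. That list went with CIDEC (r = 0.51), CD36 (r = 0.45), LPL (r = 0.40) and PPARG (r = 0.37). The relation with PPARG missed the threshold with normexp, with the authors' table and within slides (r = 0.33 in each). One of its genes, CIDEA, is also in the adipocyte pathway list, and without it, a choice made after the values were seen, none of the 9 relations passed on r adjusted over the 9 (lowest adjusted permutation p = 0.13), while 4 passed on rho. These were CD36 (r = 0.27, rho = 0.38), CIDEC (r = 0.28, rho = 0.36), PLIN1 (r = -0.33, rho = -0.35) and PPARG (r = 0.25, rho = 0.33), with adjusted permutation p of 0.0353 on rho for the first 3 and 0.0469 for PPARG. Without the 2 tumors farthest from the list median, r was 0.45 for CIDEC and 0.40 for CD36.

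LPL and CIDEC were lower where the mast cell list was higher (r = -0.49 and -0.40, adjusted permutation p = 0.00552 and 0.0294), and PPARG where the M phase list of cell division genes was higher (r = -0.43, adjusted permutation p = 0.0138). Within slides these values were -0.46, -0.45 and -0.53. Neither the fibroblast nor the macrophage nor the skeletal muscle list passed with any of the 9 genes over all tumors.

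**Figure D4:**
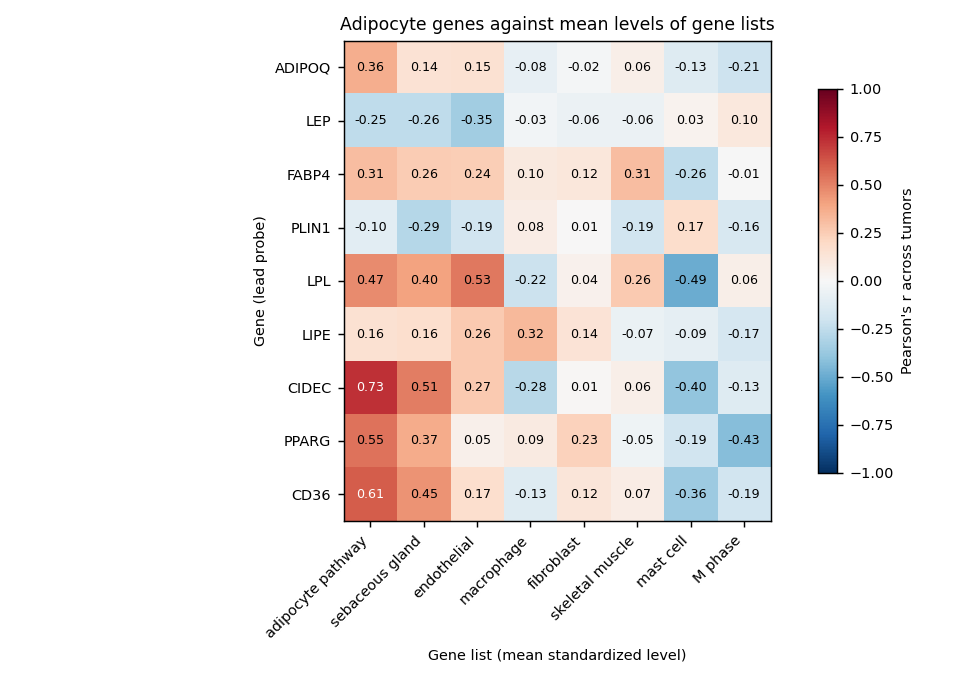
Pearson's r across tumors of each gene's lead probe with the mean standardized level of 8 gene lists, with the color running from -1 to 1. The adipocyte pathway column holds the highest value, 0.73 for CIDEC, and the mast cell column the lowest, -0.49 for LPL.

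The labels allow comparisons by sex, by breed and by age, and none of the 17 probes was called in any of them. To be called, a probe needed a change of 2-fold or more and an adjusted p below 0.01 in limma's moderated test over all probes, with no fold needed for age. The share of all probes called was 0.0252% for female against male, 0.0459% for Labrador Retriever against Boxer, 0.0115% for Labrador Retriever against Crossbred, 0.0115% for Boxer against Crossbred and 0% for age, so a count of 0 among 17 probes is what such shares would give. The groups overlapped on all 17 probes in each comparison of sex or breed, a count that was not set against the share over all probes.

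Between the sexes, ADIPOQ ranged from 5.81 through a median of 6.79 to 11.69 in the 30 female dogs and from 5.88 through 6.62 to 9.80 in the 19 male dogs. The means, 7.29 ± 1.56 (SD) and 6.86 ± 1.04, differed by 0.43 (95% confidence interval -0.35 to 1.21, limma adjusted p = 0.841). The interval of the difference thus reaches past a doubling in females.

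The LPL lead probe had means of 5.32 ± 1.35 (SD, n = 30) in females and 4.45 ± 1.51 (SD, n = 19) in males, a difference of 0.86 (95% confidence interval 0.07 to 1.66, limma unadjusted p = 0.0387, adjusted p = 0.814). The other LPL probes differed by only 0.36 and 0.57 (limma unadjusted p = 0.446 and 0.229). The second CIDEC probe had means of 5.39 ± 2.10 and 4.08 ± 1.77, a difference of 1.32 (limma unadjusted p = 0.025, adjusted p = 0.814), while on the lead probe the difference was 0.85 with an interval of -0.39 to 2.09. CD36 differed by 0.91 (interval -0.04 to 1.86) and FABP4 by 0.67 (interval -0.71 to 2.06). The LPL lead probe and the second CIDEC probe were the only 2 of 17 probes with an unadjusted p under 0.05, beside 6.13% of all probes. The difference was above 0 in 16 of the 17 probes, with a median of 0.43, against -0.01 over all probes, but probes of a gene and genes that vary together are not separate evidence.

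With slide as a fixed block, 5 of the 17 probes had an unadjusted p under 0.05 between the sexes, beside 10.7% of all probes in that fit. The difference was 2.06 for the second CIDEC probe (limma unadjusted p = 0.0096), 1.06 for both PPARG probes (0.0313 and 0.00358), 1.70 for CD36 (0.0119) and 1.11 for the LPL lead probe (0.0431). The lowest adjusted p was 0.292. On the other LPL probes the difference was 0.70 and 0.73 (limma unadjusted p = 0.263 and 0.256). The keratinocyte list had a median mean level of 0.66 in females and -0.74 in males, with overlapping ranges. In the fit without slide, 0 of its 9 genes on the array had a limma unadjusted p under 0.05. Of the 16 genes of the M phase list on the array, 11 had, with a median difference of -0.82, beside 6.13% of all probes. Their part in the differences of the adipocyte genes was not tested.

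By breed, ADIPOQ had means of 7.43 ± 1.56 (SD) in Labrador Retrievers, 7.13 ± 1.65 in Boxers and 7.19 ± 1.63 in Crossbred dogs, with medians of 6.89, 6.62 and 6.60 and single high tumors in each (10.30, 11.18 and 11.69). Labrador Retrievers and Boxers differed by 0.30 (95% confidence interval -1.15 to 1.75), so a 2-fold difference in either direction is inside the interval. PPARG levels ran from 7.33 through 9.07 to 10.45 in Boxers, from 7.98 through 10.06 to 11.02 in Labrador Retrievers and from 7.32 through 10.32 to 11.81 in Crossbred dogs. Boxers were lower than Crossbred dogs by 1.27 on the lead probe (difference -1.27, interval -2.27 to -0.27, limma unadjusted p = 0.0188, adjusted p = 1.0), and within slides the difference was -1.98 (limma unadjusted p = 0.0113). The second PPARG probe gave a difference of -0.45 (limma unadjusted p = 0.279), and -0.54 within slides (limma unadjusted p = 0.364).

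PLIN1 was also lower in Boxers than in Crossbred dogs before adjustment, with means of 6.67 ± 0.65 (SD) and 7.20 ± 0.59 and a difference of -0.52 (limma unadjusted p = 0.0383, adjusted p = 1.0), which was -0.39 within slides (limma unadjusted p = 0.121). These were the 2 of 17 probes under an unadjusted p of 0.05 in that comparison, beside 4.13% of all probes. Once slide was a fixed block, 1 of the 17 was, beside 6.47% of all probes. In the comparisons of Labrador Retrievers with Boxers and with Crossbred dogs, 0 of the 17 probes were under it, beside 4.67% and 3.12% of all probes.

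Age had 0 of 17 probes under an unadjusted p of 0.05, beside 2.47% of all probes. Over 49 dogs the slope per year was 0.01 for ADIPOQ (95% confidence interval -0.13 to 0.15), 0.11 for CIDEC (-0.12 to 0.34) and -0.09 for LPL (-0.24 to 0.06), all on the log2 scale. Of the 60 genes of the adipocyte pathway list on the array, none was called in any of the 5 comparisons. By sex 1 of the 60 had a limma unadjusted p under 0.05, and by age 0 had. In the breed comparisons, in the order given above, 3, 4 and 2 had. The shares of all probes were 6.13% by sex, 4.67%, 3.12% and 4.13% by breed and 2.47% by age.

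**Figure D5:**
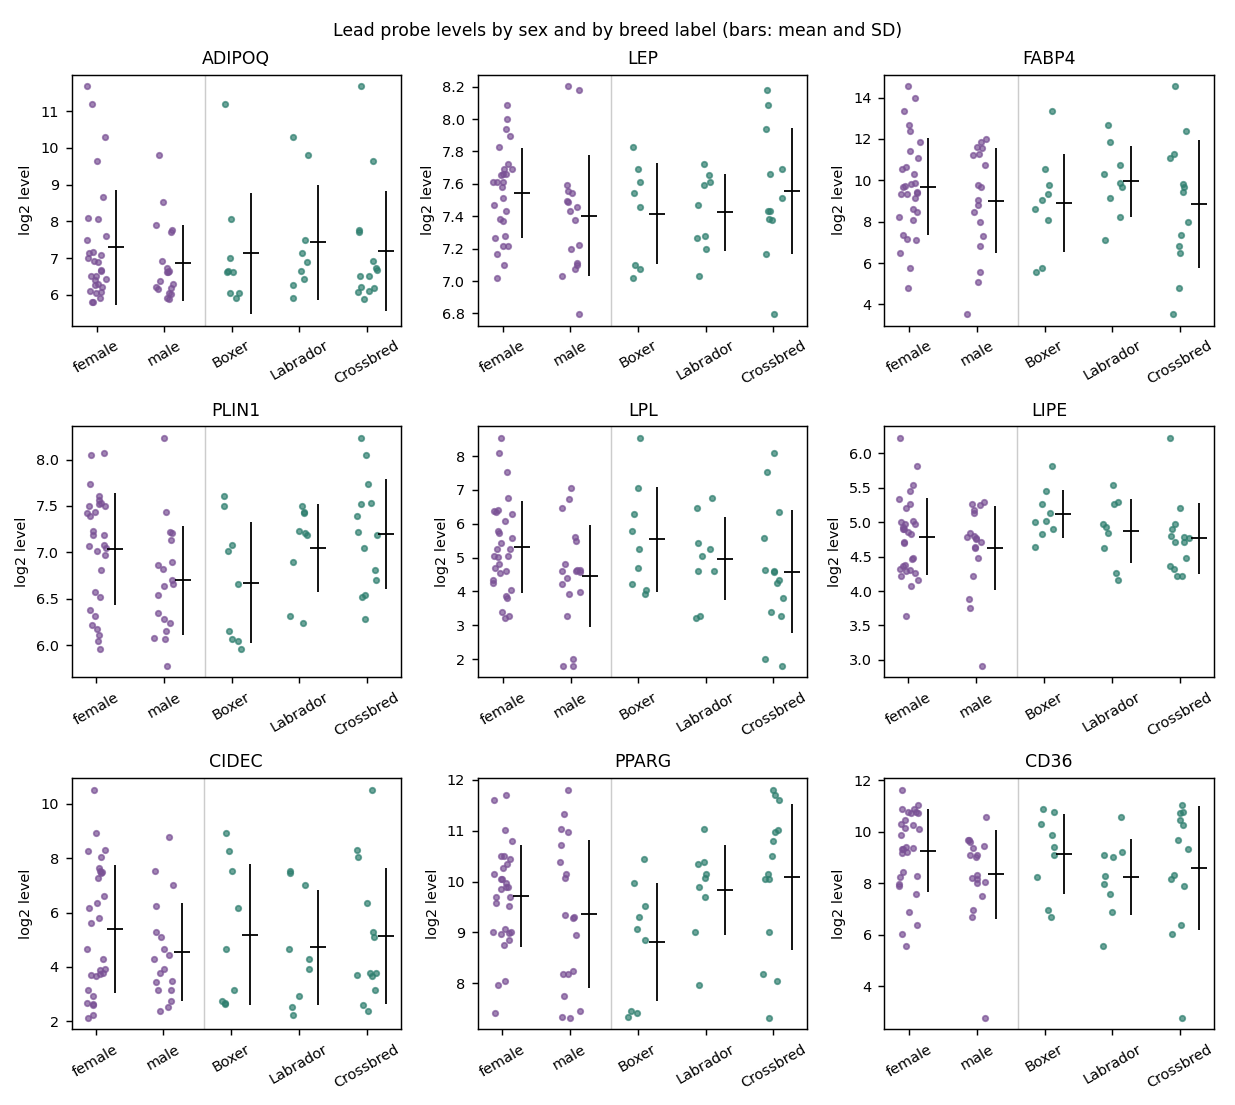
Log2 level of the lead probe of each gene by sex label and by breed label, 1 point per tumor, with the mean and SD as bars. The groups overlap in every panel, and the high ADIPOQ tumors are spread over both sexes and all 3 breed groups.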

How the data were processed

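RNA of 51 canine MCTs was labeled with Cy3 and hybridized to Agilent Canine V2 4x44k arrays, 1 tumor per array. The authors ran Agilent Feature Extraction 9.5.1.1 on the scans and deposited the processed signal of each spot as an intensity, with the background subtracted within the array and no normalization between arrays. The authors also deposited a table of intensities that were quantile normalized over the 51 arrays, which served as an alternative.

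Here log2 of the processed signal was quantile normalized across all 51 arrays. Control spots were left out (43803 spots remained), spots with outlier flags (718 to 3291 per array) were treated as missing, and a probe with several spots took their mean, which gave 43603 probes. Of these, 18827 could be named, through the files or, for names only, through the gene table of RefSeq. A mean, fit or correlation leaves out tumors in which the probe was flagged. The lead probe of a gene was the one well above background on the most arrays, then the one with the highest mean level. The LEP probe with 5 spots counted as well above background where at least 3 of them were.

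Groups came from the labels for sex, breed and age. Each dog is 1 sample. Groups were compared with limma 3.58.1 in R 4.3.3 (statmod 1.5.0) with Benjamini-Hochberg adjustment over all probes, which is not the test of the study's own methods. The 3 breed groups shared 1 fit. Correlations used 100000 permutations in Python 3.11.15 (numpy 2.4.6, pandas 2.3.3, scipy 1.17.1, figures with matplotlib 3.10.9) and Benjamini-Hochberg adjustment over their family, and each was computed again without the 2 tumors farthest from the median of the first measure. The genes named were all probes of the 9 genes, the 5 genes closest to each by Pearson's r, and the 10 highest and 3 lowest of the adipocyte pathway list by r with ADIPOQ, and 3 of the genes so chosen are not reported here. The members, lists and tests were chosen with earlier results of these data known.

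Simulated data were used to test the steps, with 43603 probes of which 200 were changed by 2 on the log2 scale, or by 0.4 per year of age. The fit recovered 191 for sex, 169 for Labrador Retriever against Boxer and 192 for age, with 1, 1 and 6 other probes called. Alternatives were the 75th percentile or normexp (offset 50) in place of the first scaling, the authors' table, flagged spots kept, dim probes left out, slide as a random or fixed block or as deviations from its mean, sex and age as covariates, an adjusted p under 0.05 without a fold limit, and leaving out each tumor. Chosen after seeing the data were the other LEP probe, r within the keratinocyte clusters and the sebaceous gland list without CIDEA. For arrays, their number and the signal over background set the precision.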

Additional observations from a re-analysis of the deposited data

Results flagged for a closer look

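In Boxers, T84 stood far from the other tumors in ADIPOQ. Its level on the lead probe was 11.18, while the next Boxer, T47, was at 8.06 and the median of the 9 Boxers was 6.62, so the gap took up 0.594 of the whole range. On the second ADIPOQ probe T84 was at 10.65, the next Boxer at 5.33 and the median at 4.29, a gap of 0.721 of the range over the 7 Boxers with a value. These were the 2 of 34 combinations of probe and breed group of 4 to 10 tumors in which 1 tumor lay beyond Dixon's 95% limit. About 1 in 20 such groups passes that limit by chance, and the 2 share the tumor and the gene.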

How the results depend on the processing

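None of the 17 probes was called under any alternative or in any of the 194 fits that left out 1 tumor. The counts over all probes moved more. Normexp gave 7 calls for sex, 11 for Labrador Retriever against Boxer, 1 for Labrador Retriever against Crossbred and 2 for Boxer against Crossbred, in place of 11, 20, 5 and 5. An adjusted p under 0.05 without a fold limit gave 28, 37, 10 and 11. For the 3 breed comparisons in the same order, slide as a fixed block gave 1, 3 and 1. Sex and age as covariates gave 3 for Labrador Retriever against Crossbred and 2 for Boxer against Crossbred, where the authors' table gave 2 and leaving out dim probes 3. Leaving out each tumor gave 11 to 13 calls for sex, 11 to 25, 4 to 8 and 2 to 9 for the breeds, and 0 for age. The tumors that moved a count by over 1.5 times were T73 (11), T84 (12), T87 (12), T88 (11), T106, T107 and T115 (13 each) for Labrador Retriever against Boxer, T58 (8) for Labrador Retriever against Crossbred, and T12 (3), T14 (9), T87 (3), T88 (2) and T115 (2) for Boxer against Crossbred. The cause was not tested.

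Small differences of the lead probes changed sign. With slide as a fixed block LEP was at -0.0369 by sex, CIDEC at 0.13 for Labrador Retriever against Boxer, PLIN1 at 0.16 for Labrador Retriever against Crossbred, FABP4 at -0.30 and CIDEC at -0.70 for Boxer against Crossbred, and the slopes per year were -0.0249 for ADIPOQ, -0.1335 for FABP4 and -0.0178 for CD36. With slide as a random block FABP4 was at -0.0664 and CIDEC at -0.24 for Boxer against Crossbred, and the slopes were -0.0003 for ADIPOQ, -0.0279 for FABP4 and -0.0012 for CD36. With covariates LEP was at -0.0198 for Labrador Retriever against Boxer, and ADIPOQ at -0.0783 and CD36 at 0.0126 for Labrador Retriever against Crossbred. Normexp gave -0.0022 for LPL in that comparison, -0.21 for FABP4 in Boxer against Crossbred and slopes of -0.0072 for ADIPOQ and -0.0037 for LIPE. FABP4 in Boxer against Crossbred was also -0.0151 at the 75th percentile, -0.0441 in the authors' table and -0.0401 with flagged spots kept. Leaving out single tumors moved ADIPOQ between -0.0599 and 0.81 and CIDEC between -0.81 and 0.0042 for Labrador Retriever against Boxer, LEP between -0.0467 and 0.069 there, ADIPOQ between -0.12 and 0.58 and CIDEC between -0.75 and 0.0449 for Labrador Retriever against Crossbred, and ADIPOQ between -0.57 and 0.28, FABP4 between -0.52 and 0.51 and CIDEC between -0.41 and 0.51 for Boxer against Crossbred. For age it moved ADIPOQ between -0.0091 and 0.083, FABP4 between -0.0463 and 0.13, LIPE between -0.0103 and 0.0255 and CD36 between -0.0252 and 0.13.

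Of the 36 pairs, 16 passed with the authors' table, with flagged spots kept, at the 75th percentile and within slides, 18 with normexp and 17 with the other LEP probe, which turned r with ADIPOQ to 0.36 and with LIPE to 0.24. ADIPOQ with LIPE passed at the 75th percentile (r = 0.35) and with normexp (r = 0.51). No paired analysis was possible because each dog is 1 sample. Probes below background, among them most readings of CIDEC and of the other LEP probe in low tumors, have levels set largely by the background.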

Other observations

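A pair of probes carries only a protein name in its description and no symbol, so neither was counted among the 17. The probe described as a fragment of lipoprotein lipase was well above background on 15 arrays, with a lowest level of 2.02, a median of 3.45 and a highest of 7.85, and r of 0.86 with the LPL lead probe. The probe described as a fragment of hormone-sensitive lipase was well above background on 1 array, with levels from 1.99 through 2.34 to 4.26 and r of 0.59 with the LIPE probe.

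Of the tumors without a sex label, T53 had an ADIPOQ level of 6.61 and a FABP4 level of 11.42, and T132 had an ADIPOQ level of 6.25 and a FABP4 level of 9.76.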
